A study of Vitis labrusca and Vitis cinerea and Vitis acerifolia with 56 samples.

Results

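Grape berries ripen from veraison on, the short phase in which they soften, begin to fill with sugar and, in dark-skinned grapes, begin to make anthocyanins, the red and blue skin pigments. Before veraison the berry is hard, green and acidic. Many genes are switched on at this turn, and in many grapes the pigment genes among them also respond to light on the cluster. The 150 genes described here were chosen by their measured levels as those with the highest shared rise from pre-veraison to maturity in libraries labelled V. labrusca and V. cinerea. They were taken from 20835 genes with an FPKM (fragments mapped to a transcript, relative to its length and to the library's mapped total) of at least 1 in at least 2 libraries, out of 29971 genes in the deposited table. The rise was computed in each species as a difference of means of log2(FPKM + 1), and the genes were ranked by the lower of both rises.

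The series holds 56 berry RNA libraries: 24 labelled V. labrusca (a hybrid with V. vinifera, by the cultivar entry), 22 labelled V. cinerea (a native American species) and 10 labelled V. acerifolia (a wild species). Berries were taken young, at pre-veraison (2 weeks before veraison), at veraison, 2 weeks after veraison and at maturity. Clusters hung in sunlight, or in foil-covered boxes until pre-veraison, until veraison or throughout. A library is called boxed below when its cluster was still in the box at harvest, and uncovered when the box had come off at an earlier stage. In each species the rule used 4 mature sunlight or uncovered libraries that show a larger share of the private genes of their labelled species than of another, against 2 pre-veraison sunlight libraries in V. labrusca and 1 in V. cinerea. Groups hold 1 or 2 libraries, and nothing in the labels says that replicates came from separate vines, so p-values measure only the spread between these libraries. In bulk tissue, fewer cells of a type and less RNA per cell cannot be told apart.

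Species-private genes went against the label in 9 libraries: 3 labelled mature V. acerifolia, 4 labelled V. cinerea and 2 labelled V. labrusca. None of the 9 is among the rule's libraries or in a group compared below. The V. labrusca private set holds 22 genes, the V. cinerea set 13 and the V. acerifolia set 271, all found in libraries up to veraison. The rule's mature V. labrusca libraries show 72.7% to 81.8% of their own set. The rule's 4 mature V. cinerea libraries show only 23.1% to 38.5% of theirs, as does V. cinerea sunlight replicate 1 taken 2 weeks after veraison, at 38.5%. Replicate 2 of that group and both mature boxed V. cinerea libraries show 84.6%, and the V. cinerea libraries up to veraison 75% to 100%. The identity of the 5 V. cinerea libraries with low shares is therefore uncertain. They include every mature library behind the V. cinerea rise, and no V. cinerea rise could be computed without them. Of the tested comparisons below, the step from veraison to 2 weeks later in V. cinerea, and its species difference, contain such a library. Between 11880 and 14509 genes were above 0 in 3 sparse V. labrusca libraries, against at least 16683 in the others. Of these, young berry replicate 1 and veraison sunlight replicate 1 enter comparisons below. Replicate 2 of V. labrusca at veraison, in sunlight and boxed, is titled veraison, while its stage entry names the harvest 2 weeks later. Tissue markers were not checked, because the table pairs no identifier with a description. Genes are therefore given by identifier, and 4 of them also by a name recalled from the grapevine literature and not looked up here.

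Within the rule, the rise ran from 2.56 to 11.15 log2 units in V. labrusca (median 4.16) and from 2.53 to 8.83 in V. cinerea (median 3.87). Over all 20835 genes the medians were -0.25 and -0.11. The V. labrusca rise was the lower one for 78 of the 150 genes and the V. cinerea rise for 72. The last genes inside were VIT_05s0049g00040 at 2.559, VIT_03s0097g00460 at 2.536 and VIT_13s0019g04460 at 2.528. The first outside were VIT_17s0000g03200 at 2.525, VIT_18s0001g02790 at 2.521 and VIT_11s0118g00560 at 2.511. These values chose the genes and test nothing.

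The 150 genes took a small share of all FPKM before ripening and a large one in ripe berries. The rule chose genes lower at pre-veraison in sunlight than at maturity, so a change in this direction follows from the choice and tests nothing. In V. labrusca they held 0.601% and 0.592% of the summed FPKM in the young berry libraries and 0.732% and 0.776% at pre-veraison in sunlight. At veraison in sunlight they held 13.5% and 15.4%, and after 2 more weeks 22% and 22.6%. In V. cinerea the share was 1.56% and 2.45% at veraison in sunlight. After 2 more weeks it was 25.4% in replicate 1, where VIT_05s0049g00520 alone held 9% of the summed FPKM, and 8.46% in replicate 2. These replicates stand far apart, as they do in private genes (38.5% and 84.6%). FPKM is relative to each library's total, so a share of this size lowers the FPKM of other genes.

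**Figure D1:**
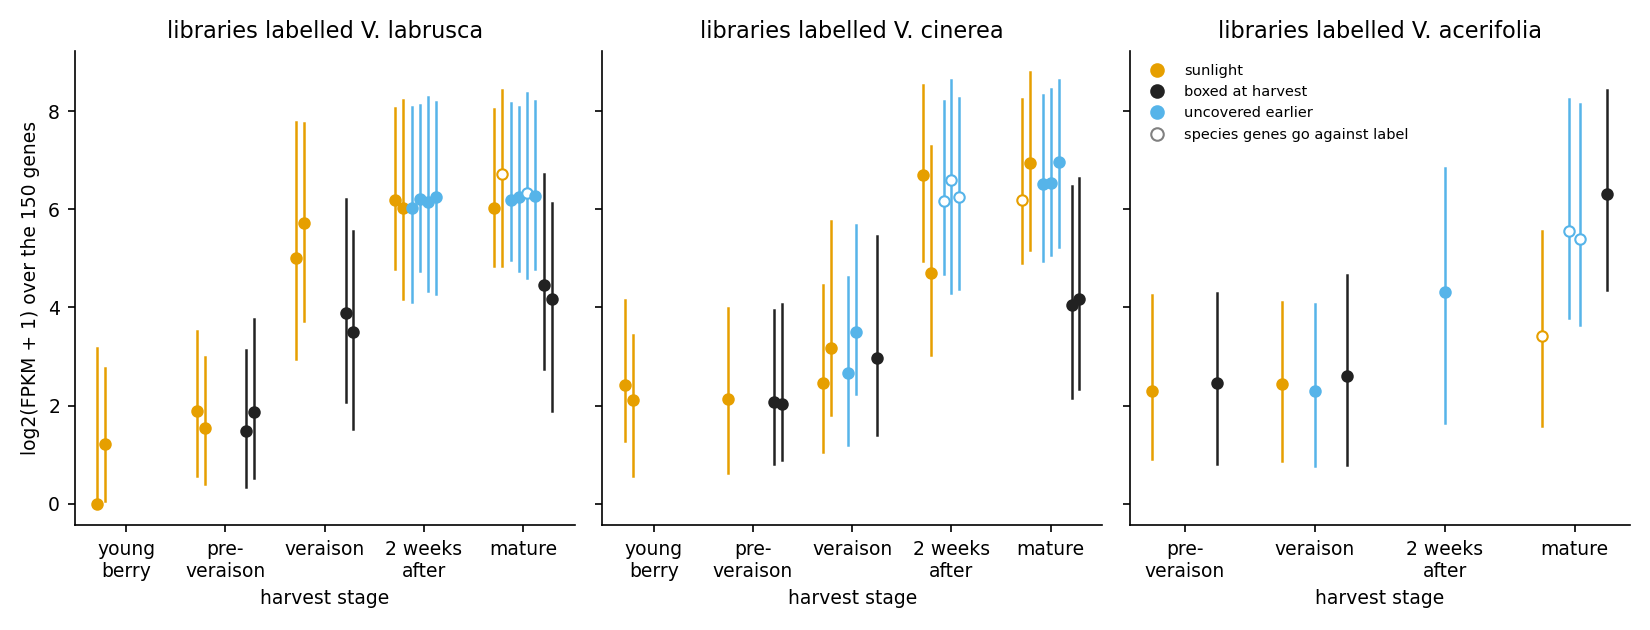
Levels of the 150 genes in each library by stage (x axis), with 1 panel per labelled species. Points are the median log2(FPKM + 1) over the genes (y axis), bars span the quartiles, and open points are the 9 libraries whose species-private genes go against the label. V. labrusca medians are 5.0 and 5.73 at veraison in sunlight, whereas V. cinerea medians there are 2.46 and 3.18.

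By the stage names of the labels, most of the rise was reached at veraison in V. labrusca and after it in V. cinerea. For each gene, the share of its own log2 rise already reached was computed. At veraison in sunlight the median share was 77.4% in V. labrusca and 14.2% in V. cinerea. The V. labrusca median was 84.2% without veraison sunlight replicate 1 and 70.9% without replicate 2. Of these V. labrusca libraries, replicate 1 is sparse, and the stage entry of replicate 2 names the harvest 2 weeks later. The V. cinerea median was 24.6% without veraison sunlight replicate 1 and 3.94% without replicate 2. After 2 more weeks the medians were 95% and 78%, and the V. cinerea median was 59.5% without replicate 1, the library with 38.5% of the private genes. At veraison 115 genes in V. labrusca and 14 in V. cinerea had reached at least 50% of their rise. The V. labrusca count rests on the same sparse library and the same library of conflicting stage entry. For 100 genes this point was reached at veraison in V. labrusca and 2 weeks later in V. cinerea, and for 11 it was reached at veraison in both. The ends of the rise chose the genes, so these shares carry no test. The V. cinerea shares are relative to mature libraries whose identity is uncertain. How far each harvest lay from the onset of ripening cannot be told apart from the species.

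**Figure D2:**
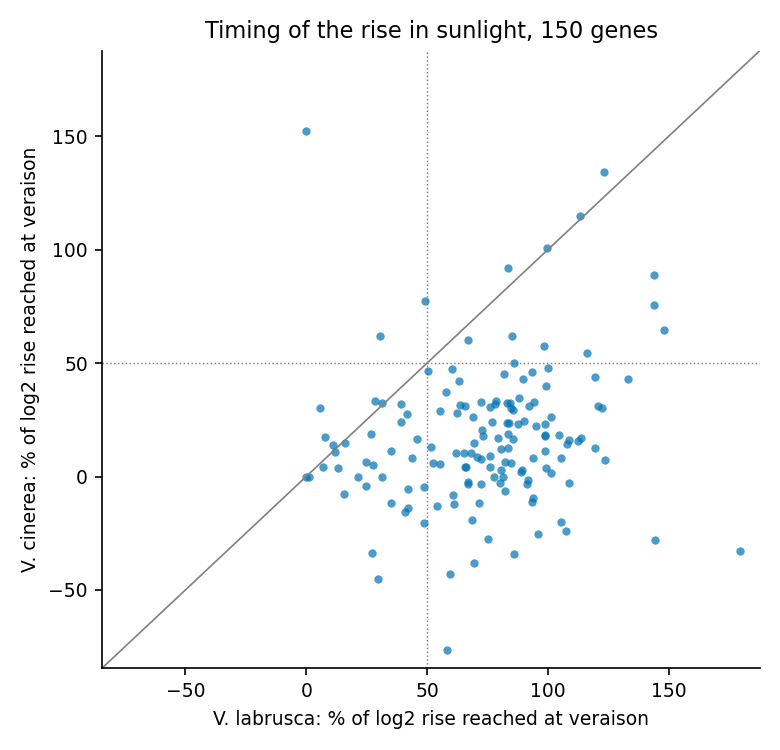
Share of the log2 rise reached at veraison in sunlight, V. labrusca (x axis, percent) against V. cinerea (y axis, percent), with 1 point per gene, a diagonal for equal shares and dotted lines at 50%. For 137 of the 150 genes the share is higher in V. labrusca.

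VIT_05s0049g00520 had the highest shared rise, 7.48 log2 units in V. labrusca and 8.83 in V. cinerea. In V. labrusca it stood at 68 and 17.7 FPKM at pre-veraison in sunlight, 4851 and 3766 at veraison, and 5670 and 3527 after 2 more weeks. In V. cinerea it stood at 167 FPKM in the pre-veraison sunlight library, 567 and 2270 at veraison, and 120891 and 17219 after 2 more weeks. The V. labrusca values at veraison and later overlap, while in V. cinerea both later libraries lay above both veraison libraries. The rule's mature libraries held 4794 to 8740 FPKM in V. labrusca and 66361 to 82989 in V. cinerea. Both mature libraries labelled V. labrusca whose private genes go against the label held 188752 and 105943 FPKM.

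VIT_06s0061g00550 had its highest V. labrusca levels at veraison. It stood at 4.02 and 2.15 FPKM in young berries, 194 and 39.3 at pre-veraison in sunlight, 6707 and 6935 at veraison in sunlight, and 2702 to 3588 in the rule's mature libraries. These groups do not overlap. In V. cinerea it stood at 60.4 and 5.82 FPKM in young berries, 78.6 and 505 at veraison and 1567 and 1035 after 2 more weeks. VIT_14s0068g00740 was lower at veraison than in young berries in V. cinerea, at 22.3 and 8.14 FPKM young, 1.37 and 1.04 at veraison, and 200 and 26 after 2 more weeks. In V. labrusca it was already at 92.8 and 68.7 FPKM at veraison.

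**Figure D3:**
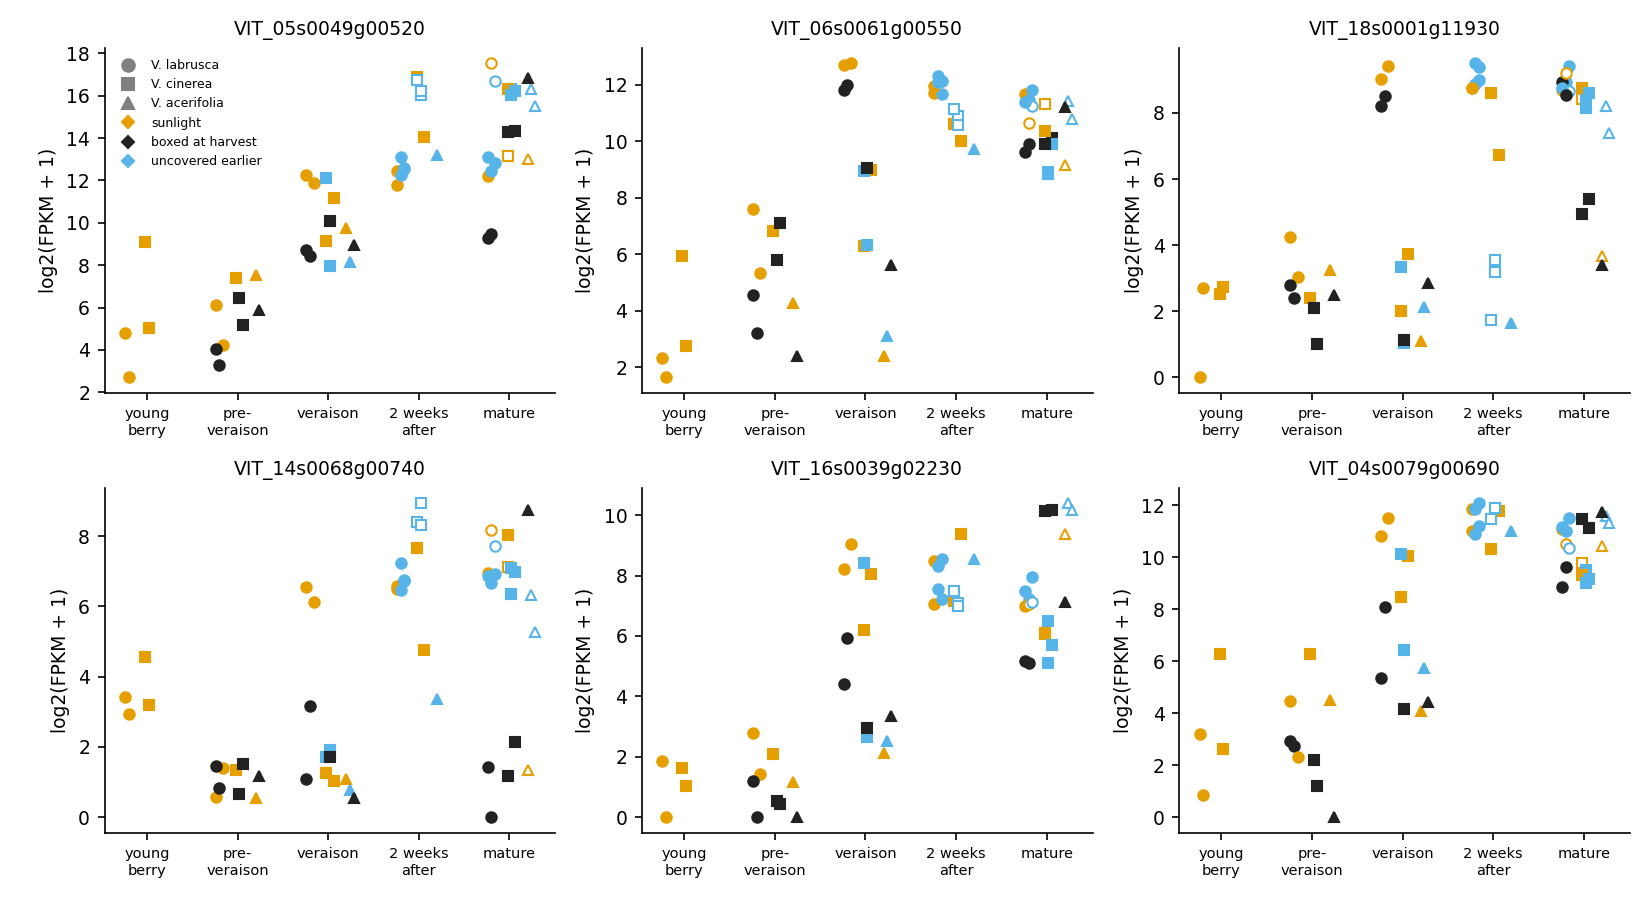
Level of 6 of the 150 genes in each library as log2(FPKM + 1) (y axis) by stage (x axis); shapes give the labelled species, colours the light at harvest, and open symbols the 9 libraries that go against their label. VIT_06s0061g00550 stands at 6707 and 6935 FPKM in the V. labrusca veraison sunlight libraries, and VIT_16s0039g02230 at 1149 and 1119 FPKM in the boxed mature V. cinerea libraries.

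The step from young berry to veraison in sunlight uses no library of the rule. It was tested with limma over the 20333 genes of the V. labrusca and V. cinerea fit, at a Benjamini-Hochberg adjusted p under 0.05. In V. labrusca 101 of the 150 genes rose (67.3%, against 6.45% of all genes tested) and the median change was 3.62 log2 units, against -0.30 over all genes. Replicate 1 is a sparse library in both V. labrusca groups. The stage entry of V. labrusca veraison sunlight replicate 2 names the harvest 2 weeks later. In young berry replicate 1, 86 of the 150 genes were listed at 0, against 36 in replicate 2. In V. cinerea 19 rose (12.7%, against 5.22% of all genes) and 2 fell (1.33%, against 9.01%), with a median of 0.66 against -0.05. All 19 were among the 101 of V. labrusca, but the overlap over all genes was not computed and nothing is read from it. The V. cinerea count of 19 dropped to 5 when veraison sunlight replicate 2 was left out, and to 8 when young berry replicate 2 was.

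The test of the difference between the species at this step was added after values of these data were seen. It uses the same V. labrusca veraison libraries, which are sparse or of conflicting stage entry. It called 48 genes with a larger change in V. labrusca (32%, against 2.14% of all genes tested), with a median difference of 3.0 log2 units against -0.24 over all genes. The count was 26 without the sparse libraries, among them V. labrusca veraison sunlight replicate 1, and 30 without that replicate alone. It was 25 without V. cinerea veraison sunlight replicate 1 and 24 without V. cinerea young berry replicate 1.

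In V. labrusca, VIT_06s0061g00550 rose by 10.75 log2 units from young berry to veraison (SE 0.89, adjusted p = 3.18e-09), with the levels given above. The change was 7.45 larger than in V. cinerea (SE 1.25, adjusted p = 0.000658). VIT_05s0049g00760 went from 4.76 and 1.29 FPKM to 4826 and 5092, a rise of 10.42 (SE 0.80, adjusted p = 9.42e-10). In V. cinerea it went from 60.8 and 7.51 to 538 and 569, a rise of 4.60 (SE 0.80, adjusted p = 0.000197), so this gene rose in both species. VIT_18s0001g11930 went in V. labrusca from 0 and 5.47 FPKM to 519 and 692, a rise of 7.88 (SE 0.76, adjusted p = 3.52e-08). In V. cinerea it stood at 4.76 and 5.67 young and 3.02 and 12.4 at veraison, which overlap, and the species difference was 7.63 (SE 1.07, adjusted p = 8.1e-05). VIT_00s0225g00230 was listed at 0 in both V. labrusca young berry libraries and stood at 270 and 188 FPKM at veraison. In V. cinerea it was at 2.22 and 0.153 young and 0.541 and 0.939 at veraison, and the test of the difference gave an adjusted p of 0.000104.

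Both genes that fell in V. cinerea from young berry to veraison were back at young-berry levels in some later libraries only. VIT_08s0058g01210 stood at 935 and 1462 FPKM in young berries and 50.9 and 113 at veraison, a change of -3.93 log2 units (SE 1.10, adjusted p = 0.0167). The rule's mature V. cinerea libraries, whose identity is uncertain and whose high levels chose the gene, held 1076 to 1601 FPKM. Sunlight replicate 2 taken 2 weeks after veraison held 208 and the mature boxed libraries 131 and 309, each with 84.6% of the private genes. The call was lost without either young berry library and without veraison sunlight replicate 1. VIT_14s0068g00740, with the levels given above, changed by -2.73 (SE 0.72, adjusted p = 0.0101), a call lost without young berry replicate 1 and without veraison sunlight replicate 2. In the mature boxed V. cinerea libraries it stood at 3.4 and 1.23 FPKM, below both young berry libraries. Of the 150 genes, 33 were at least 1 log2 unit higher in V. cinerea young berries than at pre-veraison in sunlight and 32 lower, and in V. labrusca 19 were higher and 46 lower. These counts use libraries of the rule and carry no test. Their shares over all genes were not computed, and V. labrusca young berry replicate 1 is sparse, so nothing is read from them.

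From veraison to 2 weeks later in sunlight, 50 of the 150 genes rose in V. cinerea (33.3%, against 0.846% of all genes tested), with a median of 2.62 log2 units against -0.17 over all genes. In V. labrusca limma called 0 higher (against 0% of all genes tested), and the median was 0.77 against 0.00 over all genes. The V. cinerea count rested on single libraries. It was 2 without replicate 1 of the later group, the library with the low share of private genes, and 88 without replicate 2, 6 without veraison sunlight replicate 1, and 17 with V. cinerea fitted alone. The V. labrusca count was 11 without veraison sunlight replicate 2, which carries the conflicting stage entry. The median difference between the species was -1.74 log2 units, against 0.27 over all genes. The test of that difference by limma called 0 genes as lower in V. labrusca (against 0% of all genes). That count was 27 without replicate 2 of the later V. cinerea group and 6 without V. labrusca veraison sunlight replicate 2. The veraison sunlight libraries are shared with the step from young berry.

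VIT_06s0004g06770 was at 0 and 2.87 FPKM at veraison in V. cinerea and at 546 and 69 after 2 more weeks, a rise of 6.64 log2 units (SE 1.42, adjusted p = 0.0092). VIT_06s0004g02560 went from 4.95 and 53.3 FPKM to 1671 and 1380, a rise of 6.40 (SE 1.29, adjusted p = 0.00684). In V. labrusca the same gene was at 14784 and 19750 FPKM at veraison and 4848 and 6752 after 2 more weeks, lower in both later libraries. VIT_11s0016g04920, the gene with the steepest V. labrusca rise under the rule (11.15), went in V. cinerea from 16.3 and 83.4 FPKM to 4170 and 1288. That was a rise of 5.92 (SE 1.73, adjusted p = 0.0462), lost under 7 of 13 alternatives. VIT_08s0007g04570 went from 0.634 and 5.59 FPKM to 235 and 89.3, a rise of 5.48 (SE 0.97, adjusted p = 0.00296). All 4 calls were lost without replicate 1 of the later group, whose identity is uncertain, and without veraison sunlight replicate 1.

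**Figure D4:**
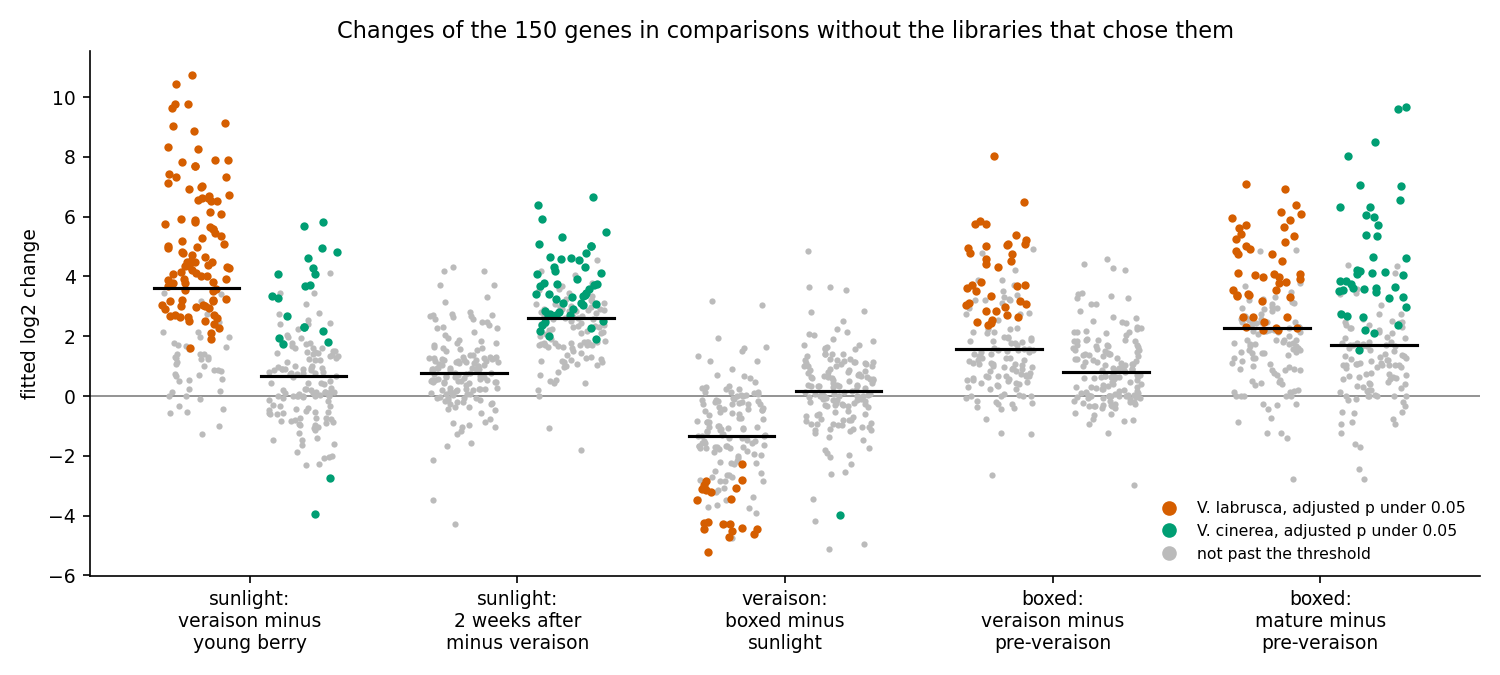
Fitted log2 change (y axis) of each of the 150 genes in 5 comparisons that use no library of the rule (x axis), for V. labrusca and V. cinerea; coloured points passed an adjusted p under 0.05 and lines are medians. From young berry to veraison the medians are 3.62 and 0.66, and from veraison to 2 weeks later 0.77 and 2.62.

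Berries kept in the box until maturity also gained many of these genes. Mature boxed berries were compared with pre-veraison boxed berries, all outside the rule. In V. labrusca 46 of the 150 genes rose (30.7%, against 0.787% of all genes tested) and in V. cinerea 42 (28%, against 2.03%). The median changes were 2.27 and 1.69 log2 units, against -0.07 and -0.09 over all genes. The rise was called in both species for 27 genes, which are 58.7% of the V. labrusca calls and 64.3% of the V. cinerea calls. The rule chose genes that rise in both species, and the overlap over all genes was not computed, so nothing is read from it. The V. labrusca count was 18 without mature boxed replicate 1 and 18 without pre-veraison boxed replicate 1. The V. cinerea count was 20 without either mature boxed library, 24 without either pre-veraison boxed library and 23 with V. cinerea fitted alone.

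VIT_05s0049g00760 went in boxed V. labrusca from 16 and 37.9 FPKM at pre-veraison to 3865 and 3201 at maturity, a rise of 7.09 log2 units (SE 0.80, adjusted p = 9.92e-06). In boxed V. cinerea it went from 219 and 60.7 to 7895 and 7560, a rise of 6.05 (SE 0.80, adjusted p = 5.36e-05). VIT_18s0001g11930 went in V. labrusca from 4.32 and 5.86 FPKM to 493 and 371, a rise of 6.15 (SE 0.76, adjusted p = 3.34e-05). These mature boxed levels lie within or just below the 410 to 685 FPKM of the rule's mature libraries. In V. cinerea the gene went from 3.26 and 0.991 to 40.9 and 29.5, a rise of 3.62 (SE 0.76, adjusted p = 0.00518), below the 282 to 428 FPKM of the rule's mature libraries. VIT_05s0094g00340 went in V. labrusca from 17.4 and 40.4 FPKM to 5712 and 1990, a rise of 6.93 (SE 1.03, adjusted p = 0.000275). VIT_05s0049g00520 went in V. cinerea from 87.4 and 35.2 FPKM to 21006 and 19767, a rise of 8.49 (SE 1.54, adjusted p = 0.00133). In V. labrusca it reached 616 and 713 from 8.87 and 15.2, so its boxed levels were below the rule's mature levels in both species. The rule chose these genes by a high level in those mature libraries, so their order against boxed berries tests nothing. In V. cinerea the identity of the rule's mature libraries is uncertain as well.

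From pre-veraison to veraison in the box, 38 of the 150 genes rose in V. labrusca (25.3%, against 0.654% of all genes tested), with a median of 1.58 log2 units. In V. cinerea, whose boxed veraison group is 1 library, limma called 0 higher (against 0.0787% of all genes), and the median was 0.80. The V. labrusca count was 8 without pre-veraison boxed replicate 1, 8 without veraison boxed replicate 1, and 25 without both libraries of conflicting stage entry. The pre-veraison boxed libraries are shared with the comparison at maturity, and the difference between the species was not tested in either. VIT_06s0061g00550 went in boxed V. labrusca from 8.23 and 22.9 FPKM to 4101 and 3608, a rise of 8.02 log2 units (SE 0.89, adjusted p = 1.52e-05). At maturity in the box it stood at 795 and 971, so its boxed levels too were highest at veraison. VIT_00s0323g00070 went from 1.51 and 3.27 FPKM to 331 and 257, a rise of 6.48 (SE 1.14, adjusted p = 0.00228), a call lost without pre-veraison boxed replicate 1.

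Boxed and sunlight berries were compared directly at veraison. In V. labrusca 21 of the 150 genes were lower in the box (14%, against 0.457% of all genes tested), and the median difference was -1.33 log2 units against 0.21 over all genes. The count was 5 without boxed replicate 1, 0 without boxed replicate 2, 2 without sunlight replicate 1, 3 without the sparse libraries and 6 without both libraries of conflicting stage entry. In V. cinerea 1 gene was lower (0.667%, against 0.0443% of all genes) and the median was 0.17. The test of the difference between the species by limma called 0 genes as lower in V. labrusca (against 0.0197% of all genes). The median difference was -1.49, against 0.17 over all genes.

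VIT_07s0031g00350 stood in V. labrusca at 224 and 200 FPKM in sunlight and 11.5 and 5.92 in the box, a difference of -4.52 log2 units (SE 0.80, adjusted p = 0.00724). In V. cinerea it stood at 38.6 and 153 FPKM in sunlight and 142 in the box, which overlap. VIT_02s0154g00300 stood in V. labrusca at 140 and 209 FPKM in sunlight and 6.84 and 1.78 in the box, a difference of -5.21 (SE 1.23, adjusted p = 0.0258). VIT_05s0049g00800 stood at 53.9 and 76.8 FPKM in sunlight and 2.56 and 0.99 in the box, a difference of -4.62 (SE 1.13, adjusted p = 0.0298). VIT_00s0324g00050 stood at 8.14 and 74.1 FPKM in sunlight and was listed at 0 in both boxed libraries (adjusted p = 0.0231). These 4 genes were picked as those called lower with the largest change, so the gap between their boxed and sunlight libraries follows from that choice. Each call was lost without boxed replicate 2.

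Mature boxed berries were set beside the rule's mature libraries as a description only, since those libraries chose the genes; the counts below were added after values were seen. Boxed berries held a median of 58.4% of the rise in V. labrusca and 42.2% in V. cinerea. Both boxed libraries lay below all 4 mature libraries of the rule for 109 genes in V. labrusca (72.7%, against 9.55% of all 20835 genes) and 117 in V. cinerea (78%, against 16.6%). Both lay above all 4 for 0 genes in V. labrusca (against 27.7% of all genes) and for 7 in V. cinerea (4.67%, against 30.4%). The choice of genes by a high mature level bears on all of these shares, and in V. cinerea the boxed libraries and those of the rule differ in private genes (84.6% against 23.1% to 38.5%). Nothing is read from these shares.

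The 7 genes above in V. cinerea were singled out after their values were seen, and they include all 4 genes with a recalled name. These are VIT_16s0039g02230 (UFGT), which glucosylates anthocyanidins, VIT_04s0079g00690 (GST4), which takes part in moving anthocyanins to the vacuole, VIT_02s0033g00390 (MYBA2), a regulator of pigment genes, and VIT_13s0019g04460 (PAL), which begins the phenylpropanoid pathway. The others are VIT_02s0033g00380, VIT_19s0090g01360 and VIT_08s0007g08330. Of 11 identifiers recalled for the anthocyanin branch, 3 are among the 150 genes: UFGT at rank 51, MYBA2 at 65 and GST4 at 111. The rest ranked from 262 to 11865. The lowest, VIT_02s0025g04720 (rank 7484) and VIT_18s0001g12800 (rank 11865), rose by 3.58 and 2.27 log2 units in V. labrusca. In V. cinerea they changed by -0.24 and -0.77, so the recalled genes did not all rise in both species.

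UFGT (VIT_16s0039g02230) stood in V. cinerea at 72.8 and 266 FPKM at veraison in sunlight, 142 and 659 after 2 more weeks and 33 to 90 in the rule's mature libraries. In mature boxed V. cinerea berries it stood at 1149 and 1119, above every other library labelled V. cinerea. From pre-veraison to maturity in the box it rose there by 9.66 log2 units (SE 1.09, adjusted p = 6.58e-06), from 0.463 and 0.347. In V. labrusca it rose by 4.52 (SE 1.09, adjusted p = 0.0219), from 0 and 1.31 to 34.8 and 33.1, below the 127 to 248 FPKM of the rule's mature libraries. The V. cinerea libraries set side by side here differ in private genes, so light and the identity of the material cannot be told apart. The 3 mature libraries labelled V. acerifolia that show 76.9% to 100% of the V. cinerea set, in sunlight or uncovered, held 661, 1342 and 1150 FPKM. Replicate 2 taken 2 weeks after veraison in sunlight, with 84.6% of the set, is the one at 659.

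GST4 (VIT_04s0079g00690) went in boxed V. cinerea from 3.62 and 1.29 FPKM to 2220 and 2824, a rise of 9.59 log2 units (SE 1.07, adjusted p = 5.58e-06), above the 505 to 718 of the rule's mature libraries. In boxed V. labrusca it went from 5.62 and 6.54 to 457 and 781, a rise of 6.40 (SE 1.07, adjusted p = 0.00089), below the 2066 to 2881 of the rule's mature libraries. PAL (VIT_13s0019g04460) went in boxed V. cinerea from 6.78 and 4.41 FPKM to 483 and 347, a rise of 5.98 (SE 0.59, adjusted p = 9.03e-07). In V. labrusca at veraison it was lower in the box, at 17.2 and 2.07 FPKM against 122 and 164 in sunlight (difference -4.25, SE 0.59, adjusted p = 0.000863). That call was lost without boxed replicate 2. At maturity in the box PAL stood in V. labrusca at 13.3 and 7.68, below the 228 to 273 of the rule's mature libraries. The same 3 libraries labelled V. acerifolia held GST4 at 1387, 3091 and 2541 FPKM and PAL at 201, 725 and 588. Those values overlap the boxed V. cinerea values, so the order of boxed and other mature V. cinerea berries is not settled for these genes.

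MYBA2 (VIT_02s0033g00390) was the gene called lower in boxed V. cinerea at veraison, at 1.51 FPKM in the boxed library against 20.9 and 70.3 in sunlight (adjusted p = 0.0498). That call was lost under 6 of 11 alternatives, median-ratio scaling and V. cinerea fitted alone among them. In V. labrusca it stood at 28.3 and 9.28 FPKM in the box against 175 and 147 in sunlight, a difference of -3.22 log2 units (SE 0.68, adjusted p = 0.0156). The V. labrusca call for MYBA2 was lost without boxed replicate 2. VIT_02s0033g00380, its neighbour in the table, was listed at 0 in every young and pre-veraison library of both species. It stood at 238 and 282 FPKM in mature boxed V. cinerea berries and 50.1 and 34.7 in those of V. labrusca. Neighbouring genes can be near copies that share reads, so the values of such pairs are uncertain.

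In V. acerifolia the median change of the 150 genes up to veraison was small. With 1 library per group no test was made, and a change of at least 1 log2 unit was counted. In sunlight 23 of the 150 genes were higher at veraison than at pre-veraison (15.3%, against 4.82% of all 20835 genes) and 15 lower (10%, against 4.21%), with a median of 0.11. The count of 23 was 35 with a pseudocount of 0.1. In the box 38 were higher (25.3%, against 8.94%) and 18 lower (12%, against 6.31%), with a median of 0.24. The 150 genes held 0.451% to 0.673% of the summed FPKM in the 5 V. acerifolia libraries up to veraison.

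Among the genes with the highest V. acerifolia change in sunlight were VIT_05s0049g00760, at 85.9 FPKM at pre-veraison and 425 at veraison, and VIT_05s0049g00510, at 11.5 and 57.7. VIT_04s0023g02200 stood at 0.873 and 10.9 FPKM. VIT_00s1351g00020 was listed at 0 and then at 29.4 FPKM, and it is listed at 0 in libraries of every species. At the other end, VIT_11s0016g04920 stood at 165 FPKM and then 7.83, VIT_18s0001g11930 at 8.55 and then 1.16, and VIT_06s0004g02560 at 23.5 and then 5.57.

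The V. acerifolia library taken 2 weeks after veraison came from berries boxed until veraison, and it shows 82.7% of the V. acerifolia private genes. It was set against the boxed veraison library, a step added after values were seen. The later stage and the uncovering come together at this step and cannot be told apart. Of the 150 genes, 77 were higher by at least 1 log2 unit (51.3%, against 13.8% of all genes) and 12 lower (8%, against 12.2%), with a median of 1.14. Their share of the summed FPKM was 4.88%. GST4 (VIT_04s0079g00690) stood at 20.5 FPKM and then 2044, and UFGT (VIT_16s0039g02230) at 9.29 and then 371. VIT_18s0001g11930 was at 6.22 and then 2.11 FPKM, so the genes did not move as 1 block. Mature V. acerifolia libraries are not used here, because 3 of them go against their label and the boxed one shows only 21.4% of the V. acerifolia set.

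**Figure D5:**
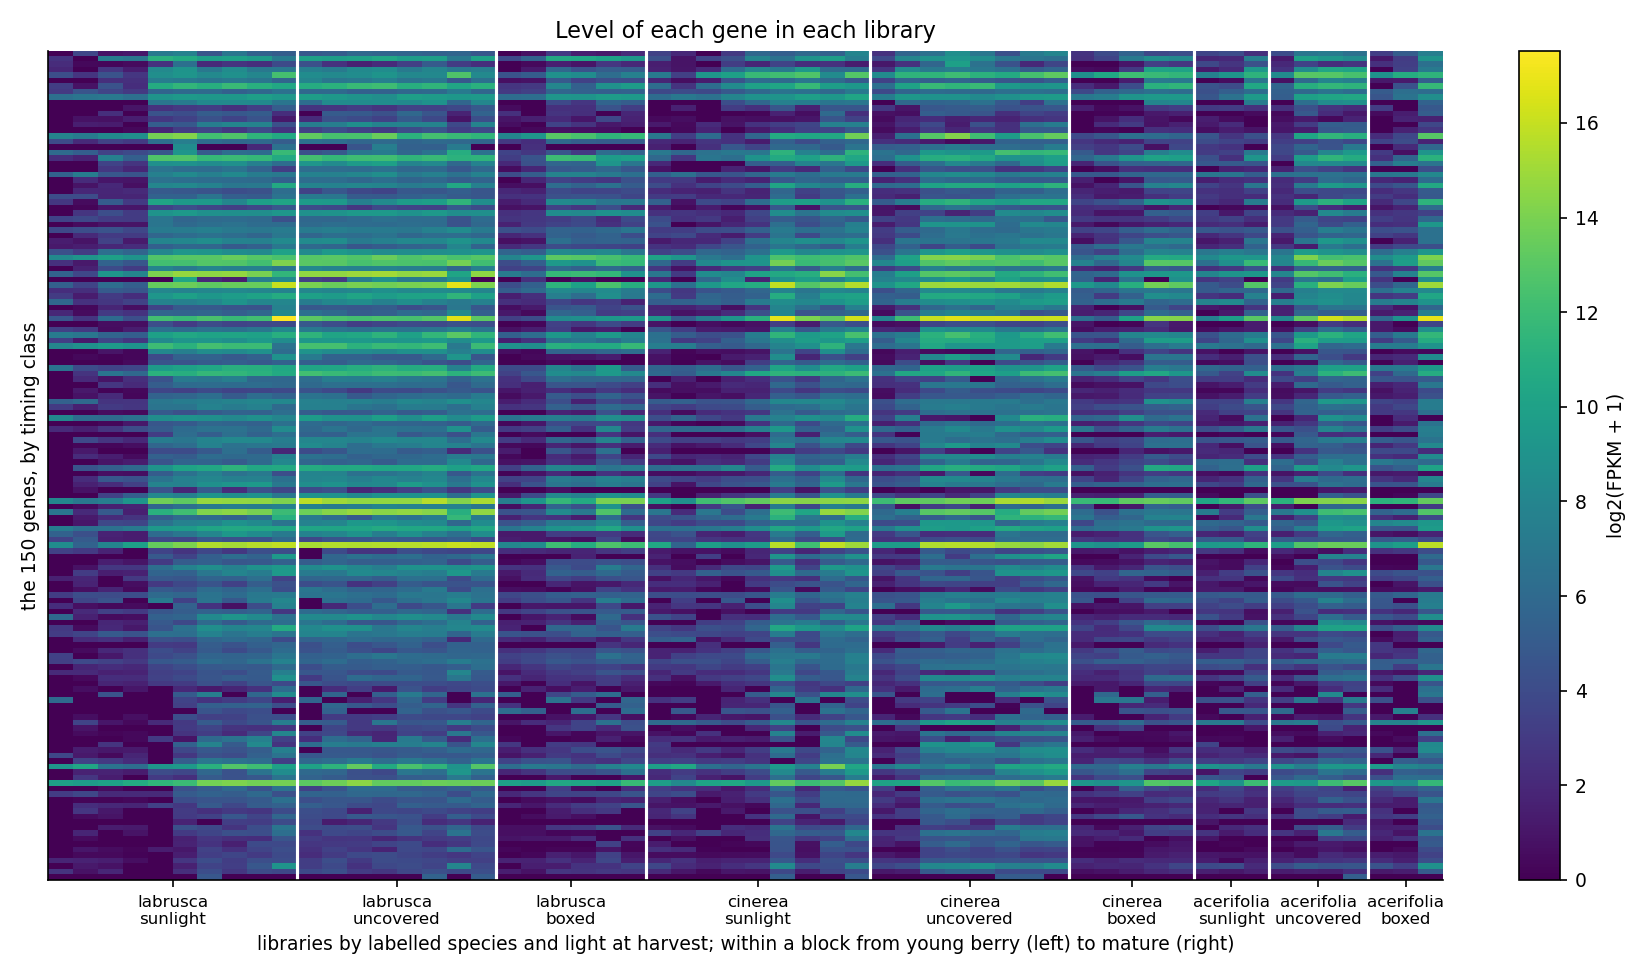
Level of each of the 150 genes (y axis, grouped by timing class) in each of the 56 libraries (x axis, by labelled species and light, young to mature from left to right), with log2(FPKM + 1) as colour. In V. labrusca 115 genes had reached at least 50% of their rise at veraison in sunlight, and in V. cinerea 14.

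By the chromosome in their identifiers, 17 of the 150 genes lay on chromosome 5 (11.3%, against 5.62% of the 20835 genes) and 11 on chromosome 16 (7.33%, against 3.74%). Chromosomes 15 and 17 held 1 each. In the order of the table, 33 of the genes lay in 13 runs of neighbours at most 5 gene models apart, 5 of them with 3 or more genes. These positions are a description and carry no test.

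The longest run is on chromosome 5, with VIT_05s0049g00740, VIT_05s0049g00760, VIT_05s0049g00770, VIT_05s0049g00800 and VIT_05s0049g00840. Levels within it differ widely. In the rule's mature V. cinerea libraries VIT_05s0049g00760 held 4567 to 8447 FPKM and VIT_05s0049g00740 1.49 to 20.3. VIT_05s0049g00840 stood at 393 and 2.55 FPKM in the V. cinerea replicates taken 2 weeks after veraison in sunlight.

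A run of 3 on chromosome 19 carries very high levels in V. labrusca. In the rule's mature libraries VIT_19s0090g01370 held 47920 to 58752 FPKM, VIT_19s0090g01340 25547 to 49495 and VIT_19s0090g01360 1401 to 1747. In mature boxed berries VIT_19s0090g01360 stood at 108 and 155 FPKM in V. labrusca and 1633 and 1397 in V. cinerea. A run of 3 on chromosome 18 stood apart between the V. cinerea replicates taken 2 weeks after veraison in sunlight. VIT_18s0001g11600 stood there at 132 and 12.1 FPKM, VIT_18s0001g11610 at 447 and 64.5, and VIT_18s0001g11630 at 70.6 and 7.23. Replicate 1 is the higher one for each, as it is for the share of summed FPKM held by all 150 genes.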

How the data were processed

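The deposited table holds FPKM values per gene for 56 libraries; per the submitters' processing notes TopHat2 2.0.14 and Cufflinks 2.2.1 were used; for the genome build, it was not given in the sources used here. Because FPKM is not a count and low values gave no constant step for 1 read, depth is unknown and no count test was run. All 56 columns matched a sample title, and 0 columns were left unmapped. The labels' description text of the V. labrusca libraries names V. cinerea, and title and organism were followed.

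Values were taken as log2(FPKM + 1), which understates changes of low genes. One coefficient per group was fitted over 46 V. labrusca and V. cinerea libraries with limma 3.58.1 in R 4.3.3 (trended prior, Benjamini-Hochberg adjustment over 20333 genes). Of the 9 libraries that go against their label, those labelled V. labrusca or V. cinerea enter this fit through the shared spread only, as no compared group holds one. A group of 1 library is assumed to vary like the others. The fit was tested on simulated data. Other steps used Python 3.11.15, pandas 2.3.3, numpy 2.4.6 and matplotlib 3.10.9.

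The members, lists and tests were chosen with earlier results of these data known. Named genes are the 12 with the highest score, 3 on each side of the threshold, up to 4 called genes per comparison and direction by size of change, the 4 highest and 4 lowest in V. acerifolia sunlight, and runs of 3 or more neighbours. The text gives a part of these, and genes named outside this rule are said to be so. Pathway lists, tissue markers, transcription factors, proteins and promoters planned for the report were not used, since no annotation or sequence was at hand. Alternatives were another pseudocount (0.1), no filter, median-ratio scaling, a replicate block, species fitted alone, other member sets, and left-out libraries.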

Additional observations from a re-analysis of the deposited data

Results flagged for a closer look

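From young berry to veraison in sunlight, the change of 48 of the 150 genes was larger in V. labrusca than in V. cinerea by a test of the difference itself (limma, Benjamini-Hochberg adjusted p under 0.05), against 2.14% of all genes tested. The median difference was 3.0 log2 units, against -0.24 over all genes. The test was added after values of these data were seen. Leaving out certain single libraries, or the sparse ones, lowered the count, as given above. The V. labrusca veraison sunlight libraries are sparse or of conflicting stage entry. The labelled stage and the species cannot be told apart here.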

How the results depend on the processing

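Over 42 counts, shares and medians, 221 of 276 alternative values stayed close to the reported ones and 55 moved. Of 465 alternative values for 35 tests of named genes, 411 kept their call, 54 lost it and 0 changed sign.

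Leaving out 1 library gave these ranges. For boxed maturity against boxed pre-veraison, 18 to 42 in V. labrusca and 20 to 24 in V. cinerea. For boxed veraison against boxed pre-veraison, 8 to 30 in V. labrusca. For 2 weeks after veraison against veraison, 0 to 11 in V. labrusca, 2 to 88 in V. cinerea and 0 to 27 for the species difference. For box against sunlight at veraison, 0 to 16 in V. labrusca, 0 to 1 in V. cinerea and 0 to 1 for the species difference. For veraison against young berry, 5 to 22 higher and 0 to 2 lower in V. cinerea and 24 to 48 for the species difference.

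Choosing the members with a pseudocount of 0.1 shared 95 of the 150 genes. The called shares were then 20% and 17.3% for boxed maturity in V. labrusca and V. cinerea, 15.3% for boxed veraison in V. labrusca, 43.3% and 4% for veraison against young berry, and 20.7% for its species difference. With 100 members the V. cinerea share for veraison against young berry was 8%. In V. acerifolia sunlight 35 genes were higher with a pseudocount of 0.1.

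V. cinerea fitted alone called 23 genes for boxed maturity, 17 for 2 weeks after veraison and 0 for box against sunlight. The last was also 0 under median-ratio scaling, with libraries outside the rule alone, and without the sparse or the conflicting libraries. Without both conflicting libraries the V. labrusca counts were 25 for boxed veraison, 10 for 2 weeks after veraison and 6 for box against sunlight, and the species difference after veraison was 5. Without the sparse libraries box against sunlight was 3 in V. labrusca, and the species differences were 1 after veraison and 26 for veraison against young berry. Without the 9 libraries that go against their label, 6 genes fell in V. cinerea to veraison, and the species difference after veraison was 2; with libraries outside the rule alone it was 1. The causes were not tested. Alternatives for the species differences, and left-out libraries for the share reached 2 weeks after veraison, were added after seeing the data.

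Scaling moved the median of all genes by -0.17 (box against sunlight) and 0.14 (veraison against young) in V. labrusca, 0.14 after veraison in V. cinerea, and -0.14 and 0.21 in the species differences after veraison and for veraison against young. The counts were then 19, 103, 52, 0 and 50.

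Replicate numbers were not taken to pair the samples: between groups, deviations of same-numbered libraries correlated from -0.22 to 0.73 in V. labrusca (median 0.02) and from -0.11 to 0.43 in V. cinerea (median 0.07). With the replicate block the species difference after veraison was 1, and V. cinerea after veraison was 58. Depth is unknown, so the precision of low values could not be given.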
